A study of Rattus norvegicus with 8 samples.

Results

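The enzymes of fructose use, glycolysis and glucose oxidation were followed as 37 genes. These were chosen by symbol for their place in these pathways, with earlier results of these data known. Of the 16514 gene symbols listed for hippocampus or hypothalamus, these 37 cover the polyol route, glycolysis, lactate and pyruvate dehydrogenase, the pentose phosphate branch, glycogen and malate dehydrogenase. Of these, 36 were listed for hippocampus and 34 for hypothalamus, and 33 had a level high enough to be compared between the tissues. Pgd, an enzyme of the pentose phosphate pathway, was not analysed here.

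Polyadenylated RNA of dissected hippocampus and hypothalamus was sequenced in 4 libraries per tissue. The animals were male Sprague Dawley rats, 2 months old at assignment, that received an omega-3 fatty acid diet, labelled as DHA, and 15% fructose in the drinking water for 6 weeks. No genetic change is labelled. All 8 libraries share the fructose and the diet, so a response to either cannot be read from them, and the comparison is one of the 2 tissues under the same feeding. The labels number the libraries of each tissue 1 to 4 and do not say whether these are separate animals, so the spread between them may be partly technical.

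Glucose enters a cell, is phosphorylated by hexokinase and is broken down in glycolysis to pyruvate. Pyruvate is either reduced to lactate or oxidised by the pyruvate dehydrogenase complex, which pyruvate dehydrogenase kinases switch off by phosphorylation. Fructose can come from outside or be made from glucose through sorbitol, and ketohexokinase commits it to a path that enters glycolysis below phosphofructokinase. In brain, astrocytes hold most of the glycogen, and neurons pass reducing equivalents from the cytosol to mitochondria through the malate-aspartate shuttle.

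Values are FPKM (fragments counted per length of transcript and per size of library) as the authors deposited them, summed over the loci of a symbol and divided by a factor per library, 0.892 to 0.950 for hippocampus and 1.07 to 1.12 for hypothalamus. They are called scaled FPKM, and since they are per length they allow levels of different genes to be set side by side. Each tissue came as its own table, so tissue and table cannot be told apart and no p-value is given for a difference between them. A gene was called higher or lower in hypothalamus when the 4 libraries of each tissue did not overlap and the mean difference on log2(scaled FPKM + 1) was at least 1. This scale understates the difference of low genes. The labels were checked with marker genes. All 9 compared markers of hippocampal pallial neurons were lower in hypothalamus, with a summed level of 2394 to 3899 scaled FPKM in hippocampus and 89.2 to 179 in hypothalamus. All 10 compared markers of hypothalamic neurons were higher there, with summed levels of 5.36 to 12.4 in hippocampus and 5805 to 10834 in hypothalamus. The pallial marker Emx1 was listed in neither table and Npy, a neuropeptide of both tissues, was listed at 0 in all 8 libraries. Replicate 1 stood apart in both tissues. Among loci with at least 5 FPKM in each of the other libraries, 277 of 7500 in hippocampus and 155 of 8128 in hypothalamus were more than 10 times lower in replicate 1, nearly all of them loci of symbols with several loci, against 0 to 3 loci in the other replicates.

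Among the 33 compared enzyme genes, hypothalamus was higher for 6 and lower for 5, and 22 met neither rule. That is 18.2% higher, where the same rule called 13.3% of all 10554 compared genes higher, and 15.2% lower, where it called 13.4% of all genes lower. With no limit on the size of the difference, 9 enzyme genes lay wholly higher and 8 wholly lower, against 25.7% and 27.7% of all genes, and 16 overlapped. A limma fit across both tables, which cannot part tissue from table either, called the same numbers, 6 and 5, where it called 13.8% and 13.6% of all genes. With values as deposited, 7 enzymes were higher and 4 lower, where 18.1% and 9.62% of all genes were. These shares are close to the background and set the enzymes apart from other genes in neither direction. The median difference of the 33 was 0.00, beside -0.04 over all compared genes, and 17 of the 33 were above 0. In such bulk tissue, fewer cells of a type and less RNA per cell cannot be told apart. Higher in hypothalamus were Gpi, Gapdh, Eno1, Pdha1, Pygm and Mdh2. Lower were Pfkm, Pgk1, Eno2, Pdk3 and Mdh1. In the order drawn, called genes of both directions stood among the 22 that met neither rule. The order of isozymes and subunits within a step was a choice.

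**Figure D1:**
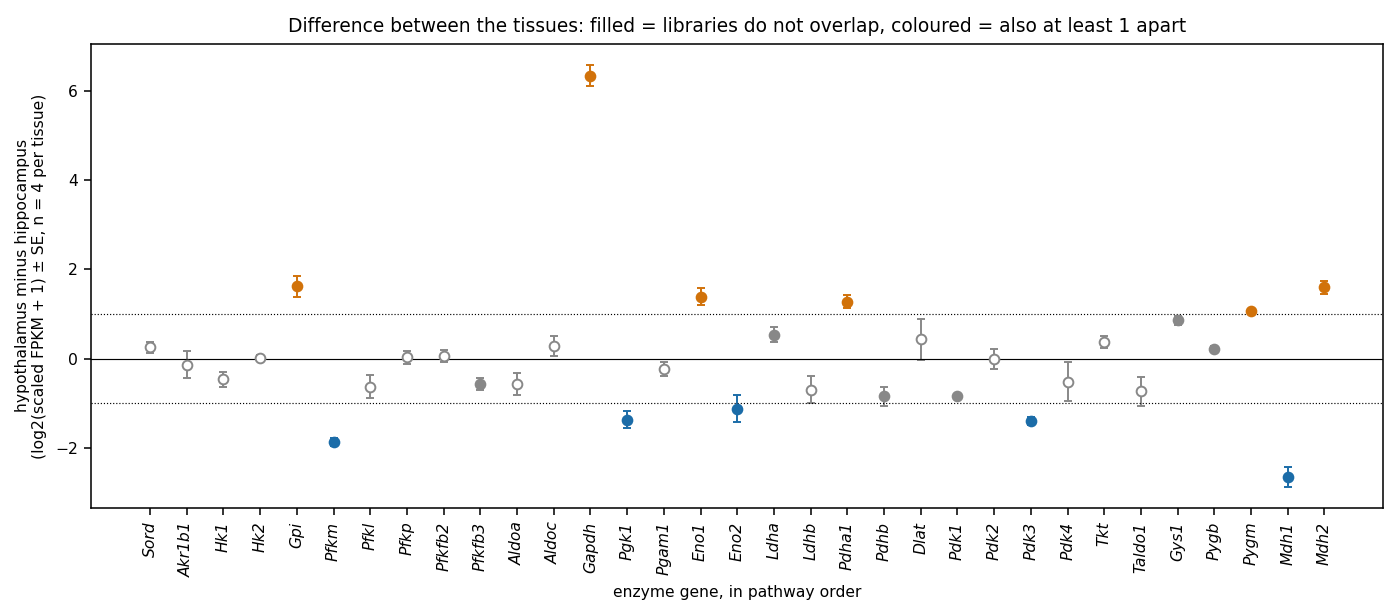
Difference of each of the 33 compared enzyme genes, hypothalamus minus hippocampus on log2(scaled FPKM + 1), in pathway order, with bars for the standard error (n = 4 libraries per tissue). Filled points mark genes whose libraries do not overlap, and coloured ones are also at least 1 apart (dotted lines); Gapdh lies at 6.34, Gpi at 1.62 above its neighbour Pfkm at -1.87, and Mdh1 at -2.65 beside Mdh2 at 1.60.

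Pairs of neighbouring enzymes with opposite differences, Gpi with Pfkm and Mdh1 with Mdh2, were picked for these differences. Their promoters are shown 5′ to 3′ on the gene's strand. Each runs from 250 bases before to 50 bases after the RefSeq gene start in GRCr8. The expression tables were made on rn5 and hold no coordinates, so these positions are RefSeq's and not those of the files. Capitals mark ACGTG or its reverse complement CACGT, the core of hypoxia-response elements, and GGGCGG or its reverse complement CCGCCC, the GC box. The Gpi window is chr1:95993212-95993511 on the minus strand, that of Pfkm chr7:131113849-131114148 on the plus strand, that of Mdh1 chr14:99847178-99847477 on the minus strand and that of Mdh2 chr12:26543792-26544091 on the minus strand.
Gpi: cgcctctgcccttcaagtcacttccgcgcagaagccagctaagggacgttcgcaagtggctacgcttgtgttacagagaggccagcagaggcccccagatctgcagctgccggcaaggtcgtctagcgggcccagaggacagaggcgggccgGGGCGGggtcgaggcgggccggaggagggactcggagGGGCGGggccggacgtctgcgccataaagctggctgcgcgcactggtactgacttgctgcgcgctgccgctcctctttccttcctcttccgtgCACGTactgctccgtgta
Pfkm: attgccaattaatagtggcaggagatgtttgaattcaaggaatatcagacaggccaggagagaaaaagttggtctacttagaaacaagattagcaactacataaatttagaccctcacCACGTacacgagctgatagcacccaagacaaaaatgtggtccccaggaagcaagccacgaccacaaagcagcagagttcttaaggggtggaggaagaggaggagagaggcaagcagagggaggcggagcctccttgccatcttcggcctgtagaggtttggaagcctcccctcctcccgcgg
Mdh1: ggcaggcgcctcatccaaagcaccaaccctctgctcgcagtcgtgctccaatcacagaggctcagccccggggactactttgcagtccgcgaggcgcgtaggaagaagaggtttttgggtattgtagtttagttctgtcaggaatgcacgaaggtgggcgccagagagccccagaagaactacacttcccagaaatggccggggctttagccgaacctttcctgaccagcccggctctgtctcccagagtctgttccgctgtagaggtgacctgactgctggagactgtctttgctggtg
Mdh2: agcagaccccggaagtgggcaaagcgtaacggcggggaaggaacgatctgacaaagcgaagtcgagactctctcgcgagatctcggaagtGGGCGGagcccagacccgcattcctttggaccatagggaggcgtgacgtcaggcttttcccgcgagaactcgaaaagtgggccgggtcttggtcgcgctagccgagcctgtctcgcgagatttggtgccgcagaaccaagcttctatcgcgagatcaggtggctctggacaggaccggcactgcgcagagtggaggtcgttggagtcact
The Gpi window holds 1 ACGTG core and 2 GC boxes, that of Pfkm 1 core and 0 GC boxes, that of Mdh2 0 cores and 1 GC box, and that of Mdh1 neither. Promoters were found for 35 of the 37 genes. ACGTG or CACGT was in 15 of these 35 (42.9%), beside 19.3% of all 33469 promoters in the table, and GGGCGG or CCGCCC in 23 of 35 (65.7%), beside 33.1%. The E-box CACGTG, which contains the ACGTG core, was in 4 of 35 (11.4%, beside 6.42%), those of Ldha, Pdk2, Pdhb and Pfkfb3, and TATAAA or TTTATA was in 2 of 35 (5.71%, beside 14.2%). The median GC content was 60.7% for these 35 windows and 51.7% over all. A match is a description of letters in a window, not a binding site, and genes higher and genes lower in hypothalamus were found both with and without ACGTG, and both with and without GGGCGG.

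Most of these genes were abundant. In hippocampus, 21 of the 36 listed lay in the top 10% of the table, and in hypothalamus 22 of 34. Together they made up 2.00% ± 0.314 (SD, n = 4) of the summed FPKM of a hippocampus library and 1.47% ± 0.0652 (n = 4) of a hypothalamus library. The 14 genes with a mean of at least 100 scaled FPKM in hippocampus were led by Mdh1, Aldoa, Ldhb, Aldoc, Pfkm and Pgk1. The 14 of hypothalamus were led by Gpi, Aldoa, Aldoc, Gapdh, Ldhb and Mdh1. In each tissue 8 listed genes had means under 10 scaled FPKM.

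**Figure D2:**
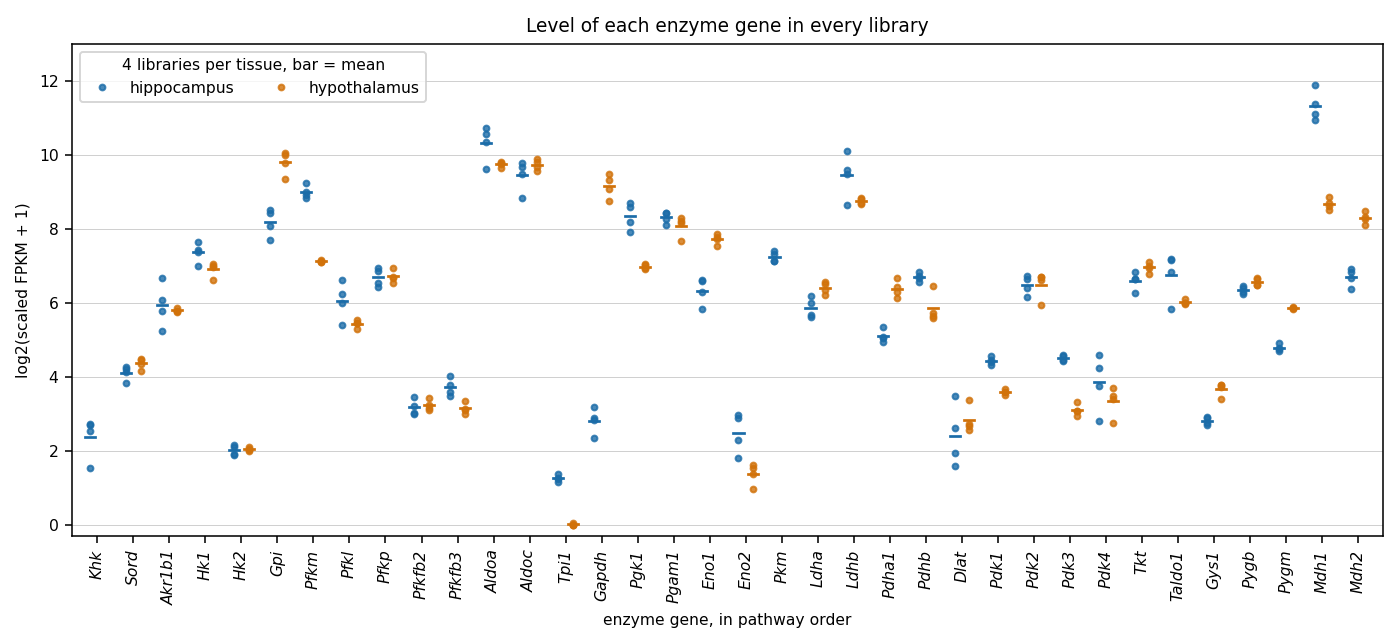
Level of each listed enzyme gene in every library, as log2(scaled FPKM + 1), in pathway order; points are single libraries (4 per tissue) and bars the means. Mdh1, Aldoa, Aldoc and Ldhb are among the highest in both tissues, Gapdh is high only in the hypothalamus table, and Khk and Pkm have points for hippocampus alone.

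The polyol route makes fructose from glucose in 2 steps. Akr1b1, the aldose reductase that reduces glucose to sorbitol, was at 36.7, 53.5, 66.3 and 101 scaled FPKM in hippocampus replicates 1 to 4 and at 53.2, 57.5, 54.0 and 54.1 in hypothalamus. The hypothalamus libraries lay close together, within the wide range of hippocampus. In hippocampus the symbol had 2 loci, of which one was at 0, 18.8, 23.2 and 57.8 and the other at 36.7, 34.8, 43.1 and 43.1, so the spread between libraries sat in the first locus. The difference was -0.14 ± 0.30 (SE, n = 4 per tissue) for the sum and 0.36 when the highest locus was taken in each table. Sord, the sorbitol dehydrogenase that oxidises sorbitol to fructose, was at 18.2, 13.3, 17.6 and 16.6 in hippocampus and 21.5, 20.9, 17.0 and 19.5 in hypothalamus. The ranges overlapped, and the difference was 0.25 ± 0.12.

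Khk, ketohexokinase, which phosphorylates fructose, was listed for hippocampus only, at 5.60, 1.90, 4.79 and 5.46 scaled FPKM. Replicate 2 lay far under the other 3 libraries. Its mean of 4.44 ± 1.73 (SD, n = 4) put it at the middle of the table (percentile 49.1), under all polyol and most glycolytic genes. No hypothalamus level is at hand, and a symbol outside a table is no measured 0. In RefSeq gene order on GRCr8, the adjacent gene Emilin1 was likewise listed for hippocampus only, at 1.47 ± 0.350, while Cgref1 on the other side was listed in both, at 31.5 and 26.8. The same holds for Pkm, described below, and its adjacent gene Parp6 (58.2 ± 2.61 in hippocampus). Of the 281 symbols listed for hippocampus only that matched a RefSeq gene, 58.7% had an adjacent gene that was also listed there only, beside 1.74% of 12875 genes listed in both tables. For the 263 listed for hypothalamus only, the share was 58.2%, beside 1.63%. Absence from a table therefore went with a gene's neighbours, and the part of expression in it was not tested. Dak, the triose kinase of the same route, was chosen after its values had been seen, and was at 1.65 ± 0.127 scaled FPKM in hippocampus and 2.41 ± 0.647 in hypothalamus.

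Hexokinase traps glucose in the cell. Hk1, the main brain form, was at 199, 126, 166 and 173 scaled FPKM in hippocampus and 97.5, 126, 131 and 124 in hypothalamus. The mean was higher in hippocampus, with a difference of -0.46 ± 0.17, but replicate 2 of hippocampus fell within the hypothalamus range. Hk2, the insulin-responsive form of muscle and fat, lay between 2.73 and 3.44 in hippocampus and between 3.03 and 3.32 in hypothalamus, with a difference of 0.02 ± 0.07. Hk1 made up 98.1% ± 0.559 of the summed hexokinase FPKM in hippocampus and 97.4% ± 0.475 in hypothalamus (SD, n = 4).

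Gpi, which converts glucose phosphate to fructose phosphate, was at 345, 208, 269.8 and 362 scaled FPKM in hippocampus and 656, 885, 1068 and 1012 in hypothalamus. The highest hippocampus library lay far under the lowest of hypothalamus. The means, 296 ± 71.1 and 905 ± 183 (SD, n = 4), differed 3.06-fold, a difference of 1.62 ± 0.24. By its mean, Gpi was the most abundant of all the listed enzymes in hypothalamus. In hypothalamus replicate 1 it lay under Aldoa (879.7) and Aldoc (759).

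Phosphofructokinase catalyses the committed step that follows. Its muscle-type subunit Pfkm was at 453, 598, 513 and 481 in hippocampus and 138, 136, 137 and 143 in hypothalamus. It was thus 3.70-fold higher in hippocampus, a difference of -1.87 ± 0.09, with no overlap and a narrow range in hypothalamus. Pfkl, the liver-type subunit, was at 96.5, 41.1, 62.7 and 75.1 in hippocampus and 43.1, 38.0, 45.1 and 42.6 in hypothalamus, and overlapped through hippocampus replicate 2 alone (-0.63 ± 0.26). Pfkp, the platelet-type subunit, lay at 84.6 to 122 and 91.2 to 121, with a difference of 0.03 ± 0.15. The 3 subunits summed to 683 ± 27.0 in hippocampus and 285 ± 15.4 in hypothalamus. Pfkm took 74.7% ± 6.57 of that sum in hippocampus and 48.6% ± 2.38 in hypothalamus, while Pfkp took 15.2% ± 3.02 and 36.6% ± 2.44, and for neither subunit did the ranges of the 2 tissues overlap. Within a library, the ratio of Gpi to Pfkm was 0.347 to 0.761 in hippocampus and 4.74 to 7.82 in hypothalamus. Such a ratio or share uses 1 library at a time and does not depend on the library factor.

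Pfkfb2 and Pfkfb3 set the amount of the sugar bisphosphate that activates phosphofructokinase. Pfkfb3, whose kinase activity prevails and which is held low in rodent neurons by protein breakdown, was at 15.3, 12.8, 11.0 and 10.1 in hippocampus and 7.04, 7.85, 9.15 and 7.63 in hypothalamus. The libraries did not overlap, but the difference of -0.57 ± 0.14 stayed under the limit of 1. Pfkfb2, the heart-type form, lay at 6.93 to 9.97 and 7.55 to 9.77, with a difference of 0.06 ± 0.13.

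Aldolase splits the sugar phosphate into 2 trioses. Aldoa, the ubiquitous form, was at 1502, 784, 1304 and 1696 scaled FPKM in hippocampus and 879.7, 798, 889.8 and 866 in hypothalamus. Aldoc, the brain form and in adult rodent forebrain mostly an astrocyte gene, was at 814, 457, 718 and 879.5 in hippocampus and 759, 819, 896 and 950.1 in hypothalamus. Hippocampus replicate 2 was the lowest library of all 8 for both genes, and the other 3 hippocampus libraries lay above all of hypothalamus for Aldoa. For Aldoc, hippocampus replicates 1 and 4 lay among the hypothalamus libraries and replicate 3 under them. The differences were -0.57 ± 0.25 for Aldoa and 0.29 ± 0.22 for Aldoc, and neither was called. The share of Aldoc within the pair, in which a shift common to both genes cancels, was 34.1 to 36.8% in hippocampus and 46.3 to 52.3% in hypothalamus, with no overlap. Of 11 compared markers of astrocytes, 4 were higher and 1 lower in hypothalamus, where the rule called 13.3% and 13.4% of all genes. Their median difference was 0.60. Their summed levels overlapped, at 3119 to 3434 scaled FPKM in hippocampus and 2913 to 3976 in hypothalamus. Sox9, a further astrocyte marker, was listed in neither table. The part of astrocytes in the share of Aldoc was not tested.

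**Figure D3:**
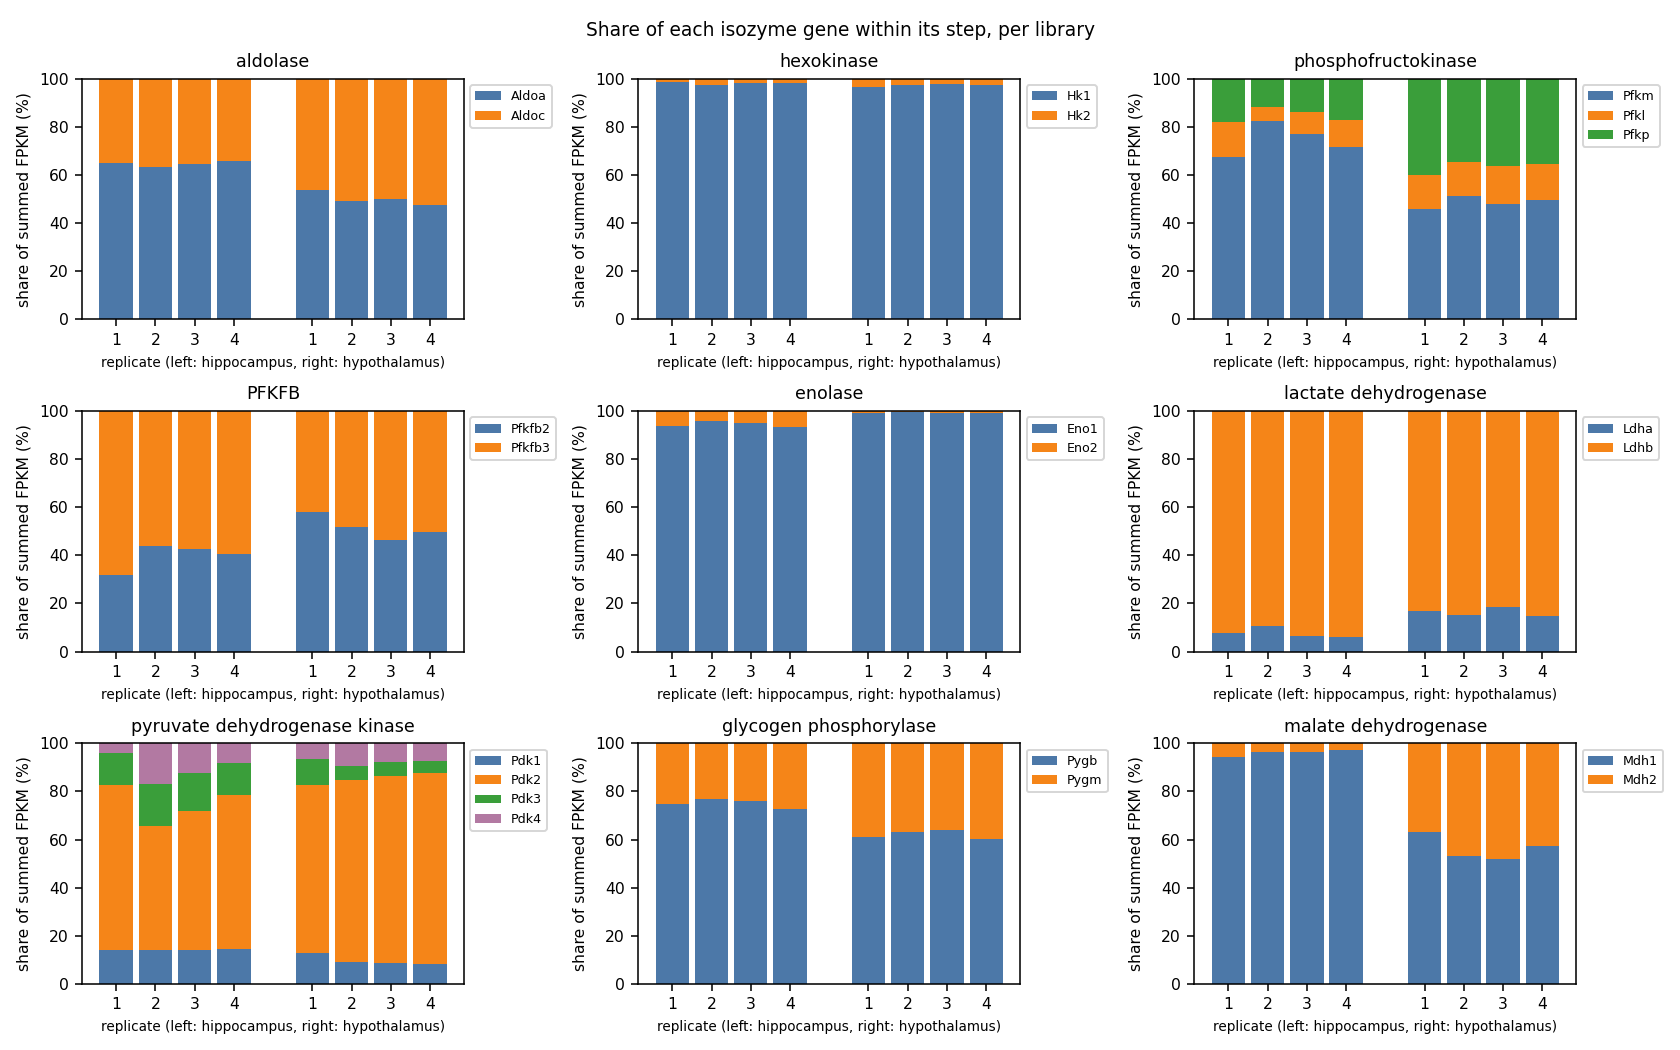
Share of each isozyme gene in the summed FPKM of its step (percent), for 9 steps, with 1 bar per library (left, hippocampus; right, hypothalamus). Pfkm takes 67.5 to 82.6% in hippocampus and 45.7 to 51.2% in hypothalamus, and Mdh2 takes 2.89 to 5.74% in hippocampus and 36.9 to 47.9% in hypothalamus.

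Tpi1, which interconverts the 2 trioses, was at only 1.23, 1.59, 1.35 and 1.43 scaled FPKM in hippocampus and was listed at 0 in 3 hypothalamus libraries and at 0.0322 in replicate 4. Its mean over the 8 libraries was under the limit of 1 FPKM, so it was not compared. Every cell that runs glycolysis uses this enzyme. Its levels lay far under those of aldolase, the step before, in both tissues. They lay far under those of Gapdh, the step after, in hypothalamus, and less far in hippocampus (Gapdh mean 6.19). The values are given as listed, and whether the transcript was absent was not tested. Eno2, the enolase of neurons, lies close to Tpi1 in the RefSeq gene order, and the genes between and beside them had values as low. Grcc10, Atn1, Lrrc23 and Spsb2 had means of 0.00851 to 0.265 in hippocampus and 0.0224 to 0.610 in hypothalamus, each from 2 loci in both tables. Usp5 on the other side of Tpi1 was at 15.9 and 7.25. Whether the low values of Tpi1 and Eno2 come from how this stretch was quantified was not tested.

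Gapdh, the glyceraldehyde phosphate dehydrogenase, was at 6.10, 4.11, 8.15 and 6.39 scaled FPKM in hippocampus and 427, 541, 716 and 639 in hypothalamus. The means, 6.19 ± 1.66 and 581 ± 125 (SD, n = 4), differed 93.9-fold, a difference of 6.34 ± 0.24 and the 12th largest in either direction of all 10554 compared genes. It stood at percentile 53.9 of the hippocampus table and 99.5 of the hypothalamus table. No other of the 33 compared enzymes was more than 6.47-fold apart. The gene carries many processed copies in the rat genome, which can share its reads. How the authors' counting divided such reads is not given in the sources used here, and the part of these copies was not tested. The hippocampus value is reported as uncertain, and tissue and quantification cannot be told apart in this difference.

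Pgk1, the first step to yield ATP, was at 388, 239, 290.3 and 416 in hippocampus and 133, 122, 119 and 128 in hypothalamus. It was 2.66-fold higher in hippocampus (-1.37 ± 0.19), with no overlap. Pgam1, the mutase that follows, was at 344, 275, 309 and 342 in hippocampus and 203, 282, 312 and 298 in hypothalamus, and overlapped (-0.23 ± 0.16). In hypothalamus its second locus was at 1.36 in replicate 1 and at 57.7, 87.0 and 64.6 in the others, and with the highest locus alone the difference was -0.52.

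Eno1, the enolase found in most tissues, was at 95.0, 56.0, 77.3 and 98.0 in hippocampus and 230.2, 186, 212 and 217 in hypothalamus, 2.59-fold higher (1.39 ± 0.19). Eno2 was at 6.39, 2.50, 3.90 and 6.82 in hippocampus and 2.04, 0.945, 1.91 and 1.60 in hypothalamus. Every hippocampus library was higher than every hypothalamus library, with a difference of -1.12 ± 0.31, and the call was lost with values as deposited (-0.95) and without hippocampus replicate 1 (-0.99), hippocampus replicate 4 (-0.96) or hypothalamus replicate 2 (-0.98). Eno2 is the classical neuronal enolase, yet it made up only 5.47% ± 1.10 of enolase FPKM in hippocampus and 0.752% ± 0.179 in hypothalamus, and with the highest locus of each symbol 3.85% and 0.426%. Markers of neurons were at 3248 to 3700 summed scaled FPKM in hippocampus and 2148 to 2626 in hypothalamus, with a median difference of -0.74. Of the 12, 3 were called higher in hypothalamus (25%, beside 13.3% of all genes) and 2 lower (16.7%, beside 13.4%). The part of neurons in the difference of Eno2 was not tested. The ratio of Pgk1 to Eno1 was steady within each tissue, 3.75 to 4.28 in hippocampus and 0.561 to 0.655 in hypothalamus.

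Pkm, the pyruvate kinase of brain and muscle, was listed for hippocampus only, at 159, 169, 139.9 and 139 scaled FPKM. Its hippocampus level was of the order of Hk1. Pyruvate is reduced to lactate by lactate dehydrogenase, built from the subunits of Ldha and Ldhb. Ldha, whose subunit favours lactate formation, was at 63.2, 47.8, 49.99 and 71.2 in hippocampus and 90.5, 72.7, 93.8 and 79.7 in hypothalamus. These did not overlap, with 0.54 ± 0.16 under the limit of 1. Ldhb, whose subunit favours lactate oxidation and is typical of neurons, was at 767, 400.0, 710.2 and 1099 in hippocampus and 447, 405, 412 and 459 in hypothalamus (-0.70 ± 0.30). Hippocampus replicate 2 lay under all 4 hypothalamus libraries and the other 3 above them. Ldhb transcripts exceeded those of Ldha in every library, and the share of Ldha was 6.08 to 10.7% in hippocampus and 14.8 to 18.5% in hypothalamus.

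The pyruvate dehydrogenase complex feeds pyruvate carbon into the citric acid cycle. Pdha1, its catalytic alpha subunit and the target of the kinases, was at 32.5, 39.9, 32.1 and 29.9 in hippocampus and 101, 68.9, 77.3 and 85.9 in hypothalamus. It was 2.48-fold higher there (1.28 ± 0.15), with no overlap. Pdhb, the partner beta subunit, differed the other way, at 104, 93.8, 112 and 101 in hippocampus and 86.1, 46.8, 48.7 and 52.4 in hypothalamus. Its libraries did not overlap, with -0.84 ± 0.21. Without hypothalamus replicate 1 the difference was -1.04 and it was called lower. The 2 subunits form a complex in equal number, and the ratio of Pdha1 to Pdhb FPKM was 0.330 ± 0.0646 in hippocampus and 1.47 ± 0.208 in hypothalamus. Pdha1 had 2 loci in both tables, whose split differed in replicate 1. In hypothalamus one locus was at 2.46 there and at 42.5, 37.8 and 45.0 in the others, and the other locus at 98.6 against 26.4, 39.5 and 40.9. In hippocampus one was at 32.3, 27.3, 21.4 and 22.0 and the other at 0.184, 12.6, 10.7 and 7.88. Dlat, the acetyltransferase core, varied most within a tissue of all compared enzymes, at 10.2, 5.19, 2.81 and 2.01 in hippocampus and 9.43, 5.65, 5.41 and 4.90 in hypothalamus. Replicate 1 was the highest in both tissues, and the difference was 0.43 ± 0.46.

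Of the 4 kinases that inhibit the complex, Pdk2 was the most abundant, at 104, 69.8, 84.3 and 99.8 in hippocampus and 60.3, 96.6, 102 and 103 in hypothalamus. Its ranges overlapped, with a difference of 0.00 ± 0.22. Pdk3 was at 20.4, 23.2, 22.7 and 20.8 in hippocampus and 9.01, 7.43, 7.49 and 6.72 in hypothalamus, 2.84-fold higher in hippocampus (-1.40 ± 0.09). Pdk1, which hypoxia induces, was at 21.1, 19.1, 20.2 and 22.7 in hippocampus and 11.2, 11.7, 11.1 and 10.5 in hypothalamus. It too had no overlap, at -0.85 ± 0.06. Pdk4, induced by fasting and fatty acids in many tissues, was at 6.06, 23.0, 18.0 and 12.6 in hippocampus and 5.74, 12.1, 10.3 and 9.50 in hypothalamus, with replicate 1 the lowest in both tissues and a difference of -0.52 ± 0.44. Pdk3 made up 13.3 to 17.2% of kinase FPKM in hippocampus and 5.18 to 10.5% in hypothalamus, and Pdk2 51.7 to 68.6% and 69.9 to 79.4%.

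In the pentose phosphate branch, Tkt, the transketolase that links it back to glycolysis, was at 113, 75.5, 99.0 and 98.2 in hippocampus and 109, 138, 123 and 126 in hypothalamus. It overlapped, with a difference of 0.37 ± 0.14. Taldo1, the transaldolase, was at 144, 56.4, 113 and 142 in hippocampus and 63.2, 62.3, 61.9 and 68.3 in hypothalamus. Hippocampus replicate 2 was lower than every hypothalamus library, while the other 3 were higher than all of them. The difference was -0.73 ± 0.32 with all libraries and -1.04, a call, without that one.

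The 3 glycogen genes, 1 for synthesis and 2 for breakdown, had no overlap between the tissues and higher levels in hypothalamus. Gys1, the glycogen synthase of muscle and brain, was at 6.62, 6.40, 5.49 and 5.70 in hippocampus and 9.48, 12.3, 12.8 and 12.6 in hypothalamus. It did not overlap and was 0.86 ± 0.11 higher, under the limit with scaled values and called with values as deposited (1.07). Pygm, the muscle-type glycogen phosphorylase that rodent astrocytes also make, was at 25.2, 26.1, 26.6 and 29.2 in hippocampus and 56.4, 57.5, 57.4 and 58.6 in hypothalamus, 2.15-fold higher (1.08 ± 0.05). It had the narrowest relative spread of all compared enzymes in hypothalamus, with a coefficient of variation of 1.59%. Pygb, the brain-type form, was at 74.5, 86.1, 84.3 and 78.1 in hippocampus and 88.3, 99.1, 102 and 88.3 in hypothalamus, without overlap but only 0.22 ± 0.07 apart. The share of Pygm in the pair was 23.3 to 27.2% in hippocampus and 36.1 to 39.9% in hypothalamus.

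The malate dehydrogenases of cytosol and mitochondria, which work in opposite directions in the malate-aspartate shuttle, differed in opposite directions. Mdh1, the cytosolic enzyme, was at 1949.5, 2191, 2630.3 and 3791 scaled FPKM in hippocampus and 467, 363, 389.9 and 412 in hypothalamus. It was 6.47-fold higher in hippocampus (-2.65 ± 0.22) and held rank 5 of all symbols of that table. Mdh2, the mitochondrial enzyme, was at 119, 82.3, 102 and 113 in hippocampus and 273, 321, 359 and 308 in hypothalamus, 3.03-fold higher in hypothalamus (1.60 ± 0.14). No library of one tissue reached the range of the other for either gene. The ratio of Mdh1 to Mdh2 was 16.4 to 33.6 within hippocampus libraries and 1.09 to 1.71 within those of hypothalamus.

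The libraries of hippocampus were less alike in these genes than those of hypothalamus. The median SD of log2(scaled FPKM + 1) was 0.26 over the 36 genes in hippocampus, beside 0.26 over all genes, and 0.15 over 33 in hypothalamus, beside 0.20. Hippocampus replicate 2 was the lowest library for 21 of 36 enzymes (58.3%), beside 36.5% of the 10485 genes whose mean reached 1 FPKM, and its median deviation from the tissue mean was -0.24, beside -0.01 over all genes. The genes low there included Khk, Aldoa, Aldoc, Gpi, Pfkl, Pgk1, Eno1, Ldhb and Taldo1, while Pfkm, Pdha1, Pfkfb2 and Pdk4 were above their mean. In the low values of the files, 1 read was worth 1.35 times as much in that library as in replicate 3, so it was the shallower of the 2. Its summed level of astrocyte markers was the highest of the 4 hippocampus libraries, 3434 against 3119 to 3166, and that of oligodendrocyte markers was too, 6223 against 4292 to 6046. Single astrocyte markers went both ways: Slc1a2, Aqp4, Slc1a3 and Gja1 were highest there, and Gfap, S100b, Aldh1l1 and Ntsr2 lowest. The median log2(scaled FPKM + 1) of the oligodendrocyte markers, 7.62, lay within the range of the others, 7.40 to 7.91. The sums of microglia markers, 174 against 251 to 297, and of endothelial markers, 154 against 176 to 187, were the lowest in this library. The median log2(scaled FPKM + 1) of the endothelial markers was the highest there, 3.36 against 2.98 to 3.16, so these markers did not move together. The sum of neuron markers, 3664, lay within the range of the others. The part of these cell types in the low enzyme levels was not tested. In hypothalamus, replicate 1 was the lowest library for 14 of 33 enzymes and the highest for 12, beside 41.6% and 38.9% of all 10746 genes.

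**Figure D4:**
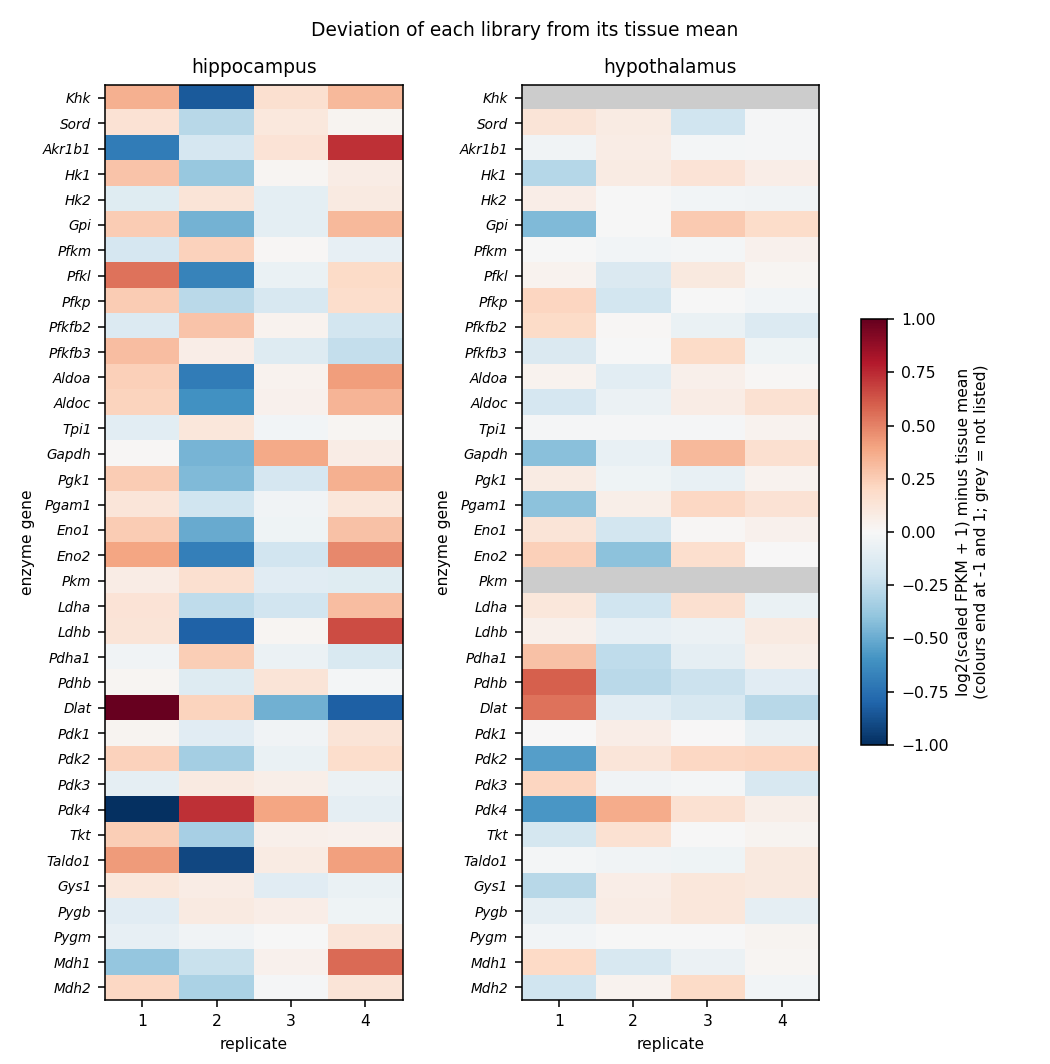
Deviation of each library from its tissue mean, on log2(scaled FPKM + 1), for each enzyme gene in pathway order; red is above and blue below the mean, colours end at -1 and 1, and grey marks genes not listed. The column of hippocampus replicate 2 is blue for most genes (median -0.24), with Taldo1 at -0.91 and Pdk4 at 0.73.

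A wider list of 65 symbols of the same pathways, alternative spellings included, held further enzymes of hexose phosphorylation, glycolysis, pentose phosphate and glycogen use, gluconeogenesis, the citric acid cycle and the shuttles. Of its 45 compared genes, 1 was higher (2.22%, beside 13.3% of all genes), 5 were lower (11.1%, beside 13.4%) and 39 were neither, with a median difference of -0.14. This balance depended on the scaling, with 4 higher and 2 lower for values as deposited (18.1% and 9.62% of all genes) and 3 higher and 4 lower for upper-quartile scaling (15.7% and 11.2%). Lower in hypothalamus was Gpd2, the mitochondrial enzyme of the glycerol phosphate shuttle, at 42.7 ± 14.8 and 10.2 ± 0.356 (-1.91 ± 0.22). Pgm2l1, which makes the glucose bisphosphate cofactor of phosphoglucomutase, was at 77.2 ± 29.4 and 20.4 ± 1.48 (-1.80 ± 0.26). Gbe1, the glycogen branching enzyme, was at 26.1 ± 2.87 and 10.9 ± 2.02 (-1.20 ± 0.14), opposite to Gys1 and Pygm. Sucla2, a subunit of succinyl-CoA ligase, was at 85.7 ± 8.10 and 40.7 ± 18.4 (-1.14 ± 0.28). Dld, the third component of pyruvate dehydrogenase, was at 62.2 ± 18.7 and 29.2 ± 11.9 (-1.09 ± 0.32). In hypothalamus, Dld at 47.1 and Sucla2 at 68.0 were highest in replicate 1, as were Pdhb and Dlat. The calls of Dld, Gbe1 and Sucla2 were lost with values as deposited (-0.86, -0.98 and -0.91), and that of Dld also with upper-quartile scaling (-0.98) and without hippocampus replicate 2 (-0.91).

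Among the genes of that list with the highest levels, Got1 and Sdhb were not called. Got1, the cytosolic aminotransferase that works with Mdh1 in the shuttle, was at 297 ± 45.7 in hippocampus and 187 ± 12.4 in hypothalamus. Its libraries did not overlap, and its difference of -0.65 ± 0.13 was in the direction of Mdh1. Sdhb, the iron-sulfur subunit of succinate dehydrogenase, was at 144 ± 37.9 and 197 ± 32.3 (0.48 ± 0.24), and its libraries overlapped.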

How the data were processed

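RNA was enriched for poly-A transcripts and sequenced on an Illumina instrument, as the labels state. Each tissue has its own table of FPKM per locus, as deposited by the authors. Per the submitters' processing notes, the tools were Cuffdiff, Cufflinks, Bowtie2, Bowtie, TopHat2 and TopHat, on build rn5. Versions, options and strand handling: not given in the sources used here. The number of reads is unknown, and no member carried a status other than OK.

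Loci with the same symbol were added up. Each library was then divided by its median-of-ratios factor, from 15892 symbols in both tables. Genes whose mean over 8 libraries reached 1 FPKM were compared on log2(FPKM + 1), with the SE from 4 libraries per tissue. The 2 tables were normalised separately, so levels were set side by side with no p-value, and limma (version 3.58.1, R 4.3.3, mean-variance trend, Benjamini-Hochberg adjusted p under 0.05 and a difference of at least 1) was an alternative. The rule for calls and the limma fit were tested on simulated data. Python 3.11.15 with pandas 2.3.3 and numpy 2.4.6 did the rest. Other scalings, a pseudocount of 0.1, other filters, other treatment of loci and leaving out libraries were tried. Every listed member was described; of the wider list, the called genes and the 3 highest were to be named, though a few are not reported here. The members, the lists and the settings were chosen with earlier results of these data known. For microglia, oligodendrocyte and endothelial markers, 1 of 10, 1 of 10 and 1 of 9 were higher and 0, 0 and 3 lower. That is 10%, 10% and 11.1% higher, beside 13.3% of all genes, and 0%, 0% and 33.3% lower, beside 13.4%.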

Additional observations from a re-analysis of the deposited data

Results flagged for a closer look

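Each listed enzyme gene was examined in each tissue, 70 groups of 4 libraries in all, for a library far from the other 3 by Dixon's test. Chance flags about 1 in 20 groups, and 4 of the 70 were found. In hippocampus, Khk was lowest in replicate 2, at 1.90 scaled FPKM where the others were at 4.79 to 5.60. In hypothalamus, Pdk2 was lowest in replicate 1, at 60.3 where the others were at 96.6 to 103. Gys1 was also lowest in hypothalamus replicate 1, at 9.48 where the others were at 12.3 to 12.8. Tpi1 was highest in hypothalamus replicate 4, at 0.0322 where the other 3 libraries were listed at 0. With the other 3 at 0, any level above 0 is flagged, so this flag, counted among the 4, says nothing on spread.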

How the results depend on the processing

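The counts of enzyme genes called stayed within 1.5 times of 6 higher and 5 lower under every alternative run. There were 7 higher and 4 lower with values as deposited, where 18.1% and 9.62% of all genes were. Symbols of 1 locus in each table gave 5 and 4, beside 12.8% and 12.3%. With no filter there were 6 and 6, beside 10.8% and 10.7%. Leaving out each library gave 6 higher throughout and 4 to 6 lower, beside 12.9 to 14.7% and 13 to 14.2% of all genes. Values as deposited moved the median of all genes to 0.18 and that of the enzymes to 0.20, upper-quartile scaling to 0.07 and 0.11, and relative to this shift the enzymes moved little. No called difference changed sign; among the 33 enzymes, those not called included Akr1b1, which went to 0.36 with the highest locus, and Pgam1, which went to 0.01 with values as deposited. Single calls that changed were those of Eno2, Gys1, Taldo1, Pdhb, Dld, Gbe1 and Sucla2, given above, and Pdhb was also called without replicate 1 of both tissues (-1.04). The cause was not tested. The alternatives for the wider list, given above, were chosen after seeing the data. Of the isozyme shares, those of enolase moved by more than their spread, with the highest locus.

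With limma and the replicate block, 6 enzyme genes were higher and 5 lower, as with limma without it, and 2898 genes in all were called against 2886. Deviations of same-numbered libraries had correlations of -0.08, -0.06, 0.08 and 0.14. Those of differently numbered libraries ran from -0.20 to 0.20. The former lie within the latter, so these values cannot decide whether equal numbers mark the same animal. Read depth is unknown: low values fell on shared steps for 89.3 to 94.4% of loci between replicates 2, 3 and 4 and for 9.02 to 12.8% in pairs with replicate 1, so not even relative depth is at hand for replicate 1.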
